A study of Mus musculus with 12 samples.

Results

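The globin genes of the mouse and Ahsp, the chaperone that holds free alpha-globin, were followed through erythroblast maturation. The members were chosen by name: the adult genes Hba-a1, Hba-a2, Hbb-bs and Hbb-bt, the embryonic genes Hba-x, Hbb-y and Hbb-bh1, the theta-globin genes Hbq1a and Hbq1b, and Ahsp. Of these 10 genes, 9 were found among the 29838 genes of the expression table, and Ahsp is not analysed here. RNA sequencing covered 12 libraries of bone marrow (BM) erythroblasts from wild-type (WT) male C57BL/6 mice aged 8 weeks, with 3 libraries at each of 4 stages: proerythroblasts (Pro), basophilic (Baso), polychromatic (Poly) and orthochromatic (Ortho) erythroblasts. All cells came from marrow depleted of CD45+ cells, and the methods also gate for viable cells that carry none of CD45, CD11b and GR1, markers of white blood cells and, for CD11b and GR1, of the myeloid lineage. Pro cells were sorted as CD44 high with low Ter119, an erythroid surface marker, and the other stages were separated among Ter119+ cells by CD44 and forward scatter, so that these gates and cell size differ between every pair of stages compared. The 3 libraries of a stage are numbered but are not described as separate animals, and p-values measure only the spread between these samples. The cell type label of Ortho replicates 2 and 3 says no more than erythroblast, and their titles gave the stage.

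Hemoglobin is a tetramer of alpha-like and beta-like globin chains, each holding a heme group, and it fills the cytoplasm of the maturing red cell. The alpha-like and beta-like genes lie in separate clusters, and each cluster is driven by distant enhancers (for beta, the locus control region) that act with erythroid factors such as GATA1, KLF1 and TAL1. Embryonic genes of each cluster serve the primitive red cells of the yolk sac and are then silenced, while the adult genes take over in fetal liver and bone marrow. Theta-globin genes are transcribed members of the alpha cluster with no established part in adult hemoglobin.

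The alpha-like genes (mm10, GENCODE M21) lie on the + strand in the order Hba-x (chr11:32276400-32278116), Hba-a1 (chr11:32283511-32284465), Hbq1b (chr11:32286965-32287784), Hba-a2 (chr11:32296489-32297298) and Hbq1a (chr11:32300069-32300873), so that each adult alpha gene is followed by a theta gene, 2499 and 2770 bases away. The beta-like genes lie on the - strand, with Hbb-bt (chr7:103812524-103813996), Hbb-bs (chr7:103826534-103828096), Hbb-bh1 (chr7:103841637-103843164) and Hbb-y (chr7:103851749-103853216). Each of the 9 genes has 3 exons.

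The adult genes are pairs of nearly identical copies, and how reads are divided within a pair rests on few bases. The coding sequences of Hba-a1 and Hba-a2 differ at 1 of 429 bases (C381T, counted from 1 at the start codon, Hba-a1 first), and those of Hbb-bs and Hbb-bt at 1 of 444 bases (C417T, Hbb-bs first). The 60 coding bases around each difference, which lie in exon 3, are shown with the differing base in capitals, for Hba-a1 (chr11:32284313-32284372), Hba-a2 (chr11:32297130-32297189), Hbb-bs (chr7:103826665-103826724, - strand) and Hbb-bt (chr7:103812656-103812715, - strand).
Hba-a1: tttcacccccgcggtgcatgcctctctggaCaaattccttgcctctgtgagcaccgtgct
Hba-a2: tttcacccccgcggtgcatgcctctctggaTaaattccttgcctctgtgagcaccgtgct
Hbb-bs: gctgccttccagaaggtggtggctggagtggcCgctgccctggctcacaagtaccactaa
Hbb-bt: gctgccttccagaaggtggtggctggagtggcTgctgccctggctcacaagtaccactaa
Of all 150-base windows of the transcripts, 150 bases being the read length, 48.4% of those of Hba-a1 occur unchanged in Hba-a2, and 65.7% of those of Hba-a2 occur in Hba-a1. For the beta pair the shares are 58.7% of the windows of Hbb-bs and 50.7% of those of Hbb-bt. For the theta pair they are smaller, at 16.0% for Hbq1a and 17.7% for Hbq1b. None of the embryonic genes shares such a window with an adult gene. A split within the alpha or beta pair is therefore uncertain. Once levels are given per length, the sum of a pair also depends on it, since the copies differ in transcript length. Hba-a1 has 699 bases and Hba-a2 554, while Hbb-bs has 628 and Hbb-bt 703. A sum also depends on whether reads that match both copies were kept. The values of the embryonic genes themselves do not rest on that split.

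The stretch just before the RefSeq transcription start, where the core promoter lies, differs between the adult, embryonic and theta genes. For some genes this start differs from the GENCODE one. The stretches of Hbb-bs, Hba-x and Hba-a1 (the last not shown) and most of that of Hbb-bt thus lie within the gene bounds given above. The 100 bases before the RefSeq start (GRCm38.p6) are given 5′ to 3′ for Hba-a2 (chr11:32296392-32296491), Hbb-bs (chr7:103827929-103828028, - strand), Hbb-bt (chr7:103813924-103814023, - strand), Hba-x (chr11:32276500-32276599), Hbb-y (chr7:103853208-103853307, - strand) and Hbq1b (chr11:32286864-32286963). Capitals mark, on either strand, the TATA box as the letters TATAA, the box named for its letters CCAAT, and the CACC box as the letters CACCC.
Hba-a2: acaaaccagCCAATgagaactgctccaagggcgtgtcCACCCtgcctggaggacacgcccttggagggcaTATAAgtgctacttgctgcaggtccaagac
Hbb-bs: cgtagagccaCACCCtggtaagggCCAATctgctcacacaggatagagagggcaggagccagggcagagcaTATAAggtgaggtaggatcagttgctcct
Hbb-bt: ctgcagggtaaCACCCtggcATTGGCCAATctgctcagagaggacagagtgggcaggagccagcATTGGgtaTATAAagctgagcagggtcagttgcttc
Hba-x: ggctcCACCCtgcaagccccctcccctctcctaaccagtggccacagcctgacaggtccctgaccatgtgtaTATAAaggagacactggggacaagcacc
Hbb-y: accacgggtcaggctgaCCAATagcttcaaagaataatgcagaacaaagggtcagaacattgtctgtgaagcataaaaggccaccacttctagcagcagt
Hbq1b: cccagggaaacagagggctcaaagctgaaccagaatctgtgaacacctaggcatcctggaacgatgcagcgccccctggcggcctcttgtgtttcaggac
All 4 adult genes held the 3 motifs together, which 0.472% of 32851 RefSeq promoter stretches of this length do. Singly, the first is found in 10.2% of them, the second in 18.9% and the third in 27.2%. The stretch of Hba-a1 shares a run of 97 bases with that of Hba-a2, and that of Hbq1a is the same as that of Hbq1b in all 100 bases and holds none of the motifs. The longest run shared by the Hbb-bs and Hbb-bt stretches is 14 bases. The letters GATAA were found in none of the stretches of these genes and in 8.55% of all of them.

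Levels are given as FPKM, fragments normalised to transcript length and to the mapped fragments of the library, and may be compared between genes because they are per length. FPKM is a relative scale within each library, and the globins took up a growing share of it. The median gene fell by 0.42 on the log2(FPKM + 1) scale between Pro and Ortho, and of the genes called in that comparison 21.0% were higher in Ortho, against 63.4% when libraries were rescaled without hemoglobin genes. The same split was 17.6% against 54.0% for Baso and 21.9% against 64.2% for Poly over Pro, and 18.0% against 28.6% for Ortho over Poly. The number of fragments behind the values is unknown. All 15 erythroid markers used to check the labels were present at every stage, led by Slc4a1 (band 3 of the red cell membrane) and Alas2.

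Although the sort selected against CD45, CD11b and GR1 at the cell surface, transcripts known from other marrow cells were also present, and some moved with the stages. The summed FPKM of 10 neutrophil markers ran from 7458 to 9194 in Pro and from 12640 to 14946 in Baso, then from 16389 to 19585 in Poly and from 14582 to 18265 in Ortho, with none of the 10 at 0. The most abundant were S100a9, at 2633 ± 648 FPKM in Pro and 6101 ± 784 in Ortho (SD, n = 3), and S100a8, at 1850 ± 288 and 4005 ± 506. The sum of 10 B cell markers, led by Cd74 and Vpreb3, was 110 to 157 in Pro and 244 to 319 in Ortho, and that of 10 macrophage markers, led by Cd68 and Csf1r, was 29.9 to 36.2 and 63.4 to 74.9. Of these macrophage markers 6 had a mean under 1 FPKM at each stage. Their sum mostly followed Cd68, at 12.3 ± 1.75 FPKM in Pro and 29.1 ± 2.05 in Ortho, and Csf1r, at 11.7 ± 1.63 and 26.4 ± 3.46. Among 10 T and NK cell markers, led by Nkg7 and Gzma, the sum was 22.8 to 34.3 in Pro and 40.8 to 50.3 in Ortho, with the defining Cd3e at 0 in every Pro and Ortho library and Cd3g at 0 in every Poly and Ortho library. The sum of 10 megakaryocyte markers, led by Itga2b and Pf4, was 75.8 to 137 in Pro and 38.7 to 48.6 in Ortho. Itga2b itself went the other way, from 18.9 ± 2.58 FPKM in Pro to 25.0 ± 1.12 in Ortho, while Pf4 went from 28.3 ± 11.4 to 7.23 ± 1.78. These changes depended on the scaling. By the rule for calls given below, 4 of 10 neutrophil, 7 of 10 B cell and 2 of 4 tested macrophage markers were higher in Ortho over Pro. Of all tested genes 6.33% were. With libraries rescaled to the same sum these counts were 0, 2 and 0, and without hemoglobin genes in the scaling 9, 9 and 3. Of 9 tested megakaryocyte markers 6 were lower, or 7 and 4 under those scalings. The part of these transcripts in the results below was not tested, and in sorted bulk samples fewer cells of a type and less RNA per cell cannot be told apart.

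The adult alpha genes, which encode the alpha chain of adult hemoglobin, rose at the step from Pro to Baso, differed little between Baso and Poly, and were highest in Ortho. Hba-a1 measured 10629, 16776 and 10984 FPKM in the 3 Pro libraries, 60476, 63340 and 57123 in Baso, 56465, 62517 and 63324 in Poly, and 85149, 98462 and 94212 in Ortho. Hba-a2 measured 10470, 15532 and 10307 FPKM in Pro, 57210, 61905 and 54016 in Baso, 55457, 59516 and 62287 in Poly, and 88674, 101284 and 89474 in Ortho. For both genes Pro lay below every other library, Baso and Poly overlapped, and Ortho lay above both. Within Pro, replicate 2 was the highest library for each.

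The adult beta genes, which encode the partner chain, followed the same course. Hbb-bs measured 8225, 13138 and 8547 FPKM in Pro, 50530, 56061 and 46346 in Baso, 51261, 58731 and 55515 in Poly, and 78381, 97264 and 84934 in Ortho. Hbb-bt measured 9564, 10567 and 6694 FPKM in Pro, 37940, 40725 and 33405 in Baso, 37985, 42359 and 40078 in Poly, and 57290, 66415 and 56578 in Ortho. In Pro replicate 1 Hbb-bt was above Hbb-bs, and in the other 11 libraries it was below.

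**Figure D1:**
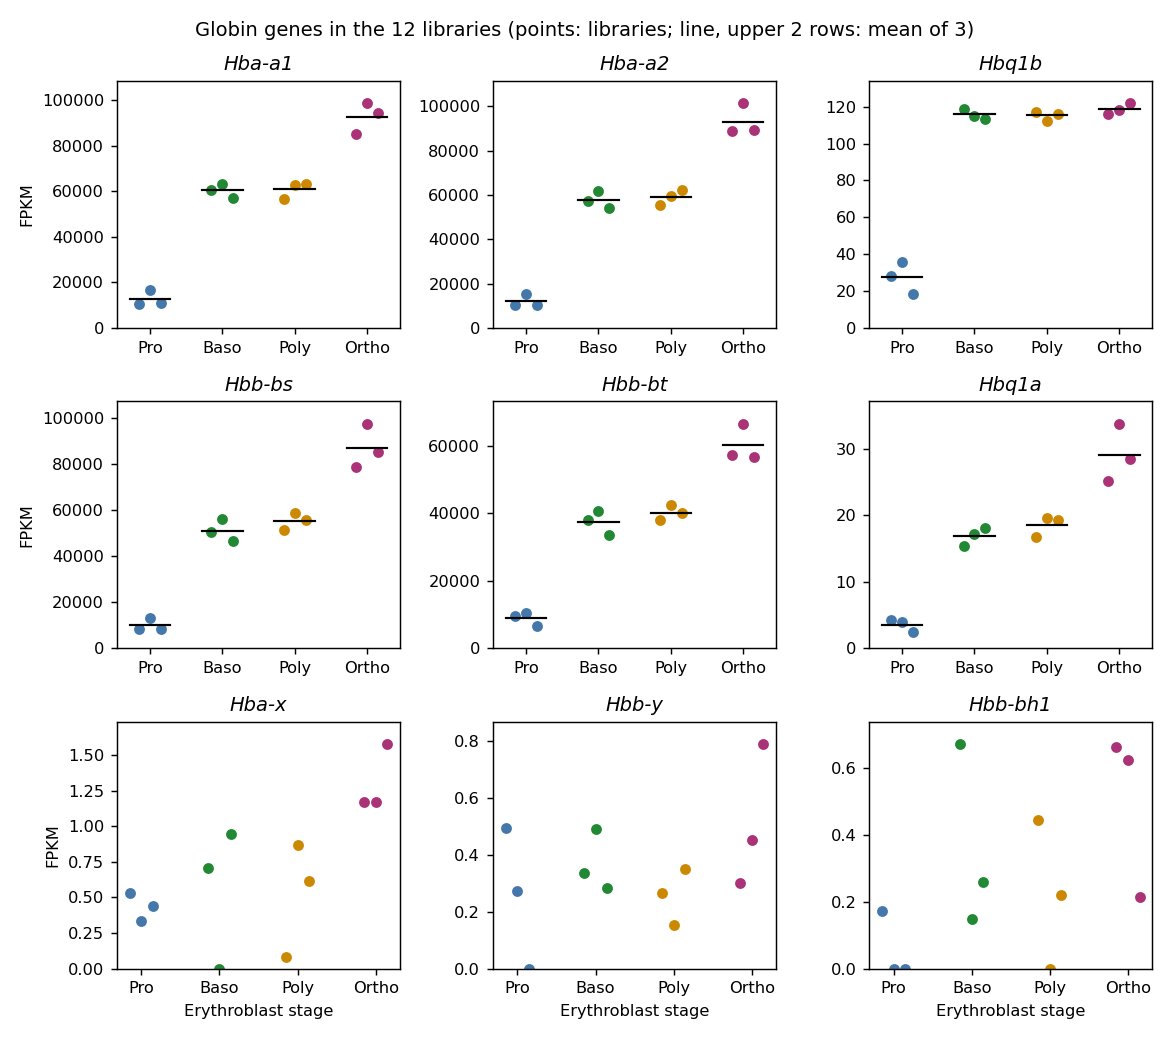
FPKM of the 9 globin genes (vertical axes, one per gene, starting at 0) at the 4 erythroblast stages; points are single libraries, and lines in the upper 2 rows are means of 3. The adult genes and Hbq1a step up at Baso and again at Ortho, Hbq1b steps up at Baso alone, and the embryonic genes in the lowest row stay below 1.6 FPKM.

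These 4 genes together with the theta genes made up the upward calls among the members. A gene was called when its adjusted p (limma, Benjamini-Hochberg over all 12994 genes tested) was below 0.05 and its change was at least 1 on the log2(FPKM + 1) scale. Of the 9 genes, 7 passed the filter on low values and were tested, and Hbb-y and Hbb-bh1 did not. In Baso over Pro 6 of the 7 were called higher and none lower, where 1.82% of all tested genes were called higher. The same 6 genes were called higher in Poly over Pro, against 3.59% of all tested genes, and in Ortho over Pro, against 6.33%. Without the filter on low values only the 2 theta genes were called in each of these comparisons, and with neither the filter nor the variance trend all 6 were.

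In the comparisons with Pro the estimate was highest for Hbb-bs and lowest for Hbb-bt among the adult genes. From Pro to Baso Hbb-bs rose by 2.38 ± 0.20 (log2 fold change ± SE, adjusted p = 3.7e-06), Hba-a2 by 2.28 ± 0.18 (adjusted p = 3.5e-06), Hba-a1 by 2.27 ± 0.19 (adjusted p = 4.0e-06) and Hbb-bt by 2.08 ± 0.18 (adjusted p = 5.1e-06). The means rose 5.11-fold for Hbb-bs and 4.18-fold for Hbb-bt. These differences between genes were within the intervals of the single estimates. Such intervals do not measure a difference between genes of the same libraries, for which ratios within a library are given below. In Ortho the change from Pro reached 3.15 ± 0.20 for Hbb-bs and 2.77 ± 0.18 for Hbb-bt, with Hba-a2 at 2.97 ± 0.18 and Hba-a1 at 2.89 ± 0.19 (adjusted p from 7.7e-08 to 1.2e-07). Without Pro replicate 1 the lowest of these was Hba-a1 at 2.77, and Hbb-bt was at 2.83. Ordered by change in Ortho over Pro, these genes ranked between 25 (Hbb-bs) and 48 (Hbb-bt) among the 12994 tested.

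Between Baso and Poly no member was called, and none had an unadjusted p under 0.05, where 0.516% of all tested genes were called. The largest differences were 0.13 ± 0.16 for Hbq1a and 0.12 ± 0.20 for Hbb-bs (adjusted p = 0.63 and 0.74). For Hba-a1 the difference was 0.01, with a 95% interval from -0.41 to 0.43. A change of less than about 0.4 in an adult gene could thus not be told from the spread between libraries.

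From Poly to Ortho the adult genes rose again, by less than the fold required for a call. No member was called, where 1.05% of all tested genes were called higher. By the adjusted p alone 5 of the 7 were higher, where 4.43% of all tested genes were. Hba-x had an unadjusted p of 0.029 (limma, adjusted p = 0.094). It passed the filter on low values only through its Ortho libraries, so that it is no support for a rise. Hba-a2 rose by 0.66 ± 0.18 (adjusted p = 0.020), Hbb-bs by 0.65 ± 0.20 (adjusted p = 0.030), Hba-a1 by 0.61 ± 0.19 (adjusted p = 0.035) and Hbb-bt by 0.58 ± 0.18 (adjusted p = 0.036). In mean FPKM these were rises of 1.50-fold for Hbb-bt to 1.58-fold for Hba-a2. After median centring 6 of the 7, Hba-x among them, had an adjusted p below 0.05, and 5 had one with hemoglobin genes left out of the scaling. With the libraries rescaled to the same summed FPKM only Hba-a2 kept an adjusted p below 0.05 (0.47, adjusted p = 0.040). Without Poly replicate 1 or without Ortho replicate 2 none of the 7 did, without Poly replicate 2, Poly replicate 3 or Ortho replicate 3 only 1 did, without Baso replicate 3 it was 2 and without Ortho replicate 1 it was 3. Without the filter on low values 1 did, Hbq1a.

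**Figure D2:**
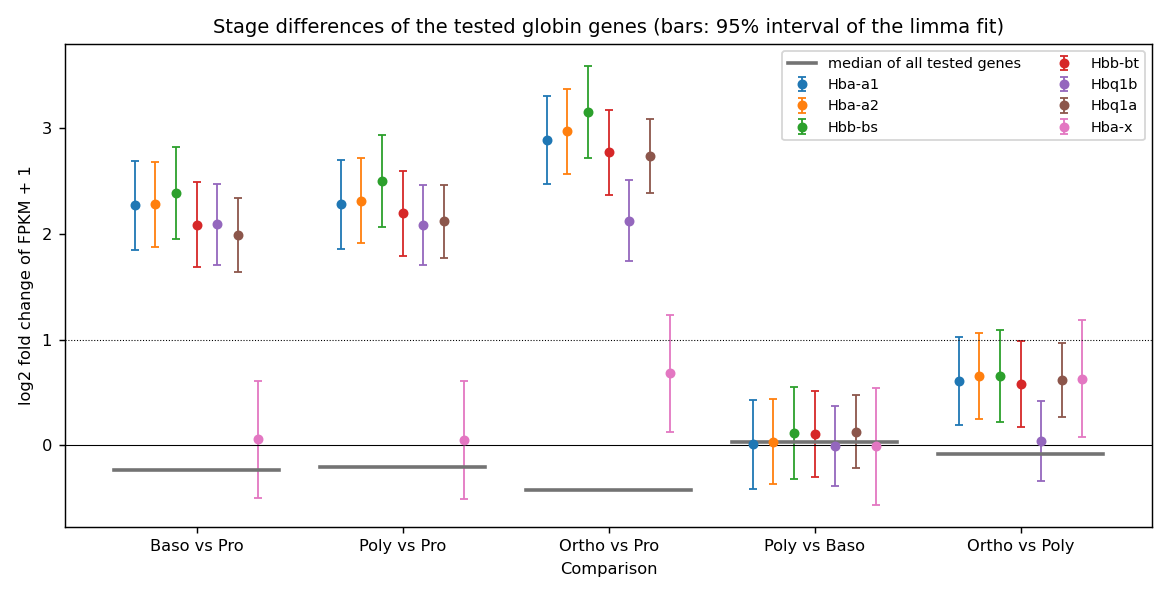
Log2 fold change of FPKM + 1 (vertical axis) for the 7 tested globin genes in each of the 5 comparisons (horizontal axis); points are limma estimates, bars their 95% intervals, grey lines the median of all 12994 tested genes and the dotted line the fold required for a call. The 4 adult genes and both theta genes lie above 1.9 in each comparison with Pro and near 0 in Poly vs Baso.

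Relative to the rest of each library, the 9 globin genes held 6.98 to 10.7% of summed FPKM in Pro, then 33.2 to 36.7% in Baso with 34.8 to 37.6% in Poly, and 47.2 to 52.6% in Ortho. Since FPKM is per length, this is not a share of RNA mass. Hba-a1 was the most abundant gene in 10 of the 12 libraries and Hba-a2 in Ortho replicates 1 and 2. Hbb-bs ranked 3 and Hbb-bt 4 in 10 libraries. The exceptions were Pro replicate 1, where Hbb-bt ranked 3 and Hbb-bs 4, and Pro replicate 3, where Hbb-bt ranked 5 behind mt-Co1, a mitochondrial gene for cytochrome oxidase, at 6821 FPKM. In Baso, Poly and Ortho the next gene was S100a9.

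Balanced output of alpha-like and beta-like chains is needed for hemoglobin, since unpaired chains precipitate. A ratio taken within one library does not depend on how libraries are scaled. The summed FPKM of the adult alpha genes over that of the adult beta genes was 1.19, 1.36 and 1.40 in the Pro libraries, 1.33, 1.29 and 1.39 in Baso, 1.25, 1.21 and 1.31 in Poly, and 1.28, 1.22 and 1.30 in Ortho. Alpha exceeded beta in all 12 libraries, and the ranges of all 4 stages overlapped. The size of this ratio depends on the treatment of reads that match both copies of a pair, which is not given. The log2 ratio had a mean of 0.39 ± 0.13 in Pro against 0.34 ± 0.05 in Ortho (SD, n = 3), and the test over the 4 stages did not pass (exact permutation test over the 15400 divisions of the libraries, two-sided, p = 0.49, adjusted p = 0.49 over 3 ratios, and adjusted p = 0.38 with stages permuted within replicate number). Among Baso, Poly and Ortho, whose same-numbered libraries deviate together, the ratio was lower in Poly than in Baso in each of the 3 replicate numbers, by a log2 difference of -0.090 ± 0.0089 (SD, n = 3), and lower in Ortho than in Baso in each, by -0.080 ± 0.024. With stages permuted within replicate number, a test chosen after seeing the data, these 3 stages gave p = 0.083 (exact, two-sided, adjusted p = 0.13 over 3 ratios), where the smallest p the design allows is 0.028. With only Hba-a1 over Hbb-bs the ratio did fall, from 1.28 to 1.29 at the Pro stage to 1.13 to 1.23 at Baso, 1.06 to 1.14 at Poly and 1.01 to 1.11 at Ortho (range of 3 libraries, exact permutation test, adjusted p = 0.0037). This ratio of single copies rests on the uncertain split of reads within both pairs, and the ratio of the sums showed no such fall.

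Within the beta pair the mix shifted. Hbb-bt made up 53.8, 44.6 and 43.9% of adult beta FPKM in Pro, 42.9, 42.1 and 41.9% in Baso, 42.6, 41.9 and 41.9% in Poly, and 42.2, 40.6 and 40.0% in Ortho. Every Pro library was above every later library, and Pro replicate 1 stood apart from the other 2. The share went from 47.4 ± 5.50% in Pro to 40.9 ± 1.16% in Ortho (SD, n = 3; exact permutation test, two-sided, p = 0.0031, adjusted p = 0.0092). Without Pro replicate 1 the difference was -3.32 percentage points in place of -6.49 (adjusted p = 0.020), and without any 1 library of Baso, Poly or Ortho the adjusted p was 0.067 to 0.129. Among Baso, Poly and Ortho alone, with stages permuted within replicate number, the share did not pass (exact, adjusted p = 0.13). For the alpha pair Hba-a1 made up 50.4 to 51.9% of adult alpha FPKM in Pro and 49.0 to 51.3% in Ortho, and the test over the stages did not pass (exact permutation test, p = 0.20, adjusted p = 0.29). Both splits rest on the assignment of reads between near-identical copies.

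**Figure D3:**
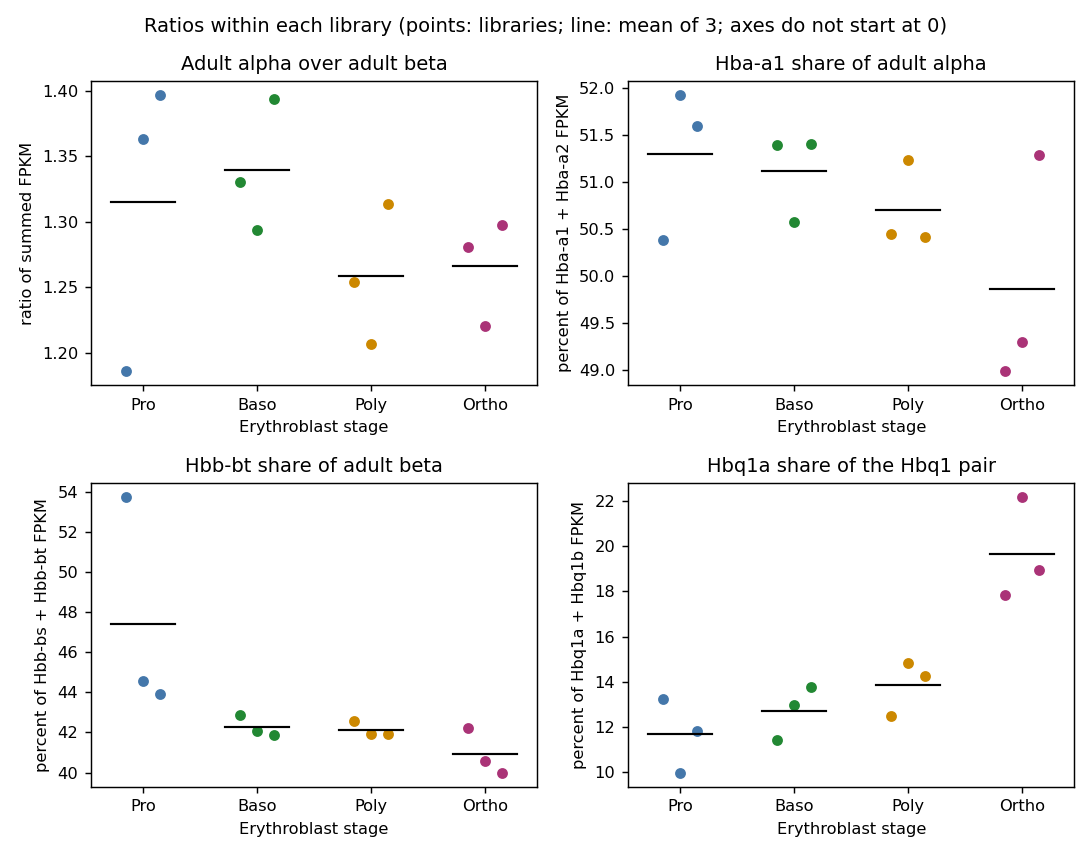
Ratios within each library at the 4 stages: adult alpha over adult beta FPKM, and the percentage of each copy pair held by Hba-a1, Hbb-bt and Hbq1a (vertical axes, which do not start at 0); points are libraries and lines means of 3. The Hbb-bt share is highest in Pro, with replicate 1 at 53.8%, and the Hbq1a share is highest in Ortho, at 17.9 to 22.2%.

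The theta genes were transcribed far below the adult genes. Hbq1b measured 28.2, 36.0 and 18.1 FPKM in Pro, 118.9, 115.2 and 113.4 in Baso, 117.3, 112.5 and 116.0 in Poly, and 115.8, 118.2 and 121.8 in Ortho. After the step at Baso its 9 libraries lay within 112.5 to 121.8 FPKM, with no order by stage. Hbq1a measured 4.31, 3.99 and 2.44 FPKM in Pro, 15.3, 17.2 and 18.1 in Baso, 16.8, 19.6 and 19.3 in Poly, and 25.2, 33.7 and 28.4 in Ortho. Its Ortho libraries all lay above those of Baso and Poly, as for the adult genes.

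Both theta genes were called higher in each later stage than in Pro. In Baso Hbq1b rose by 2.09 ± 0.17 (adjusted p = 3.7e-06) and Hbq1a by 1.99 ± 0.16 (adjusted p = 3.2e-06). In Ortho over Pro the changes were 2.12 ± 0.17 and 2.73 ± 0.16. From Poly to Ortho Hbq1a rose by 0.62 ± 0.16 (adjusted p = 0.012), below the fold for a call, while the difference for Hbq1b was 0.04 with a 95% interval from -0.34 to 0.42 (adjusted p = 0.91). Over the alternatives run the Hbq1b difference went from -0.15, when libraries were rescaled to the same sum, to 0.19. Rescaling to the same sum took the adjusted p of Hbq1a to 0.053. Hbq1a made up 12.5, 14.8 and 14.3% of the pair's FPKM in Poly and 17.9, 22.2 and 18.9% in Ortho. The ranges did not overlap, but this ratio was picked after its values were seen and was not tested. Set against the adult gene before it in the cluster, Hbq1b stood at 1.90 ± 0.152 FPKM per 1000 FPKM of Hba-a1 in Poly and 1.28 ± 0.0802 in Ortho (SD, n = 3), and Hbq1a at 0.314 ± 0.0137 per 1000 FPKM of Hba-a2 in Poly and 0.311 ± 0.0250 in Ortho. These ratios to a single adult copy were not tested either, and they rest on the uncertain split of reads between Hba-a1 and Hba-a2. The 100 bases before the start are the same in both theta genes, as shown above, while Hbq1b was above Hbq1a in every library.

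The embryonic genes were at or near the lower end of the scale in every library. Hba-x, the embryonic zeta-type alpha gene, measured 0.531, 0.333 and 0.442 FPKM in Pro, 0.709, 0 and 0.947 in Baso, 0.0809, 0.869 and 0.616 in Poly, and 1.17, 1.17 and 1.57 in Ortho. It reached 1 FPKM in the 3 Ortho libraries alone and passed the filter only through them, so that its rise from Pro to Ortho of 0.68 ± 0.25 (adjusted p = 0.028, below the fold for a call) is no support for a change. The Ortho values lay above all others.

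Hbb-y, the embryonic epsilon-type beta gene, measured 0.496, 0.274 and 0 FPKM in Pro, 0.337, 0.492 and 0.283 in Baso, 0.268, 0.153 and 0.350 in Poly, and 0.301, 0.453 and 0.789 in Ortho. Hbb-bh1, the other embryonic beta-like gene, measured 0.172, 0 and 0 FPKM in Pro, 0.671, 0.149 and 0.260 in Baso, 0.443, 0 and 0.221 in Poly, and 0.663, 0.624 and 0.214 in Ortho. The stages overlapped for both genes, apart from Hbb-bh1 in Ortho over Pro. The 3 embryonic genes together came to between 2.89 and 30.8 FPKM per 1000000 FPKM of globin, with the highest value in Pro replicate 1 and the lowest in Baso replicate 2. Hbb-y and Hbb-bh1 were below the filter on low values and were not among the genes tested, and a value listed at 0 does not show absence.

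Among the genes whose course was most like that of Hbb-bs, by Pearson correlation of log2(FPKM + 1) over the 12 libraries, were Alas2 (r = 0.997) and Fzr1 (r = 0.991), and both were also among those most like Hba-a1 (r = 0.998 and 0.991). The libraries share their stage, so that r mostly reflects differences between stages. Alas2, the erythroid first enzyme of heme synthesis, started at 336 ± 83.1 FPKM in Pro, held 1440 ± 67.1 in Baso with 1400 ± 81.9 in Poly, and ended at 2221 ± 167 in Ortho (SD, n = 3). Fzr1, an activator of the anaphase-promoting complex, went from 48.1 ± 2.66 FPKM in Pro to 206 ± 3.74 in Ortho. Among members, r with Hba-a1 was 0.999 for Hba-a2 and Hbb-bs, 0.991 for Hbb-bt, 0.983 for Hbq1a, 0.966 for Hbq1b and 0.41 for Hba-x.

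Genes around the globins, grouped in lists by role, did not move as one. In Ortho over Pro, 6.33% of all tested genes were called higher and 23.8% lower, with a median of -0.42. With libraries rescaled to the same sum 5178 of the 12994 tested genes were called, 6.20% of them higher (median -0.72). Without hemoglobin genes in the scaling 3150 were called, 63.4% of them higher (median -0.027). After median centring 3371 were called, 61.6% of them higher (median -0.028). Counts of the lists under these scalings moved together with those over all tested genes. Of the 8 heme synthesis enzymes 2 were called higher and 2 lower (median 0.12), or 1 higher and 3 lower (median -0.25) with libraries rescaled to the same sum. Alas2 rose by 2.74 ± 0.14 (adjusted p = 2.7e-08), while Alad, the second enzyme of the pathway, fell by 2.28 ± 0.10 (adjusted p = 9.8e-09) and Cpox, a later mitochondrial step, fell by 1.79 ± 0.07 (adjusted p = 6.0e-09), each by limma with Benjamini-Hochberg adjustment. Alad and Cpox were highest in Baso, at 380 ± 14.0 and 450 ± 13.8 FPKM. In Baso over Pro 2 of the 8 enzymes were called higher and none lower, against 1.82% and 8.54% of all tested genes.

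Of 5 mitochondrial carriers for glycine, iron and porphyrin, 1 was called higher and 2 lower in Ortho over Pro (median -0.82). Slc25a37, the iron importer mitoferrin, rose by 1.94 ± 0.12, and Tmem14c, a porphyrin carrier, fell by 2.79 ± 0.12. Slc25a38, a glycine carrier, fell by 1.11 ± 0.08 but was not called without hemoglobin genes in the scaling or after median centring. Of 7 genes of heme sensing, export and breakdown, 2 were called higher and 1 lower (median -0.29, or 0.16 with hemoglobin genes left out of the scaling). Eif2ak1, the heme-regulated kinase that slows globin translation when heme is short, rose by 1.12 ± 0.09 and Hmox1, heme oxygenase, by 1.06 ± 0.13, and neither was called when libraries were rescaled to the same sum. Blvra, biliverdin reductase, fell by 1.86 ± 0.11.

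Of 10 transcription factors of the globin genes none was called higher and 6 were called lower in Ortho over Pro (median -1.14). Klf1 fell by 2.19 ± 0.09, Ldb1, which links distant enhancers to the globin promoters, by 2.08 ± 0.09 and Gata1 by 2.04 ± 0.09 (adjusted p from 5.1e-09 to 8.0e-09, limma). Klf1 held 320 ± 23.5 FPKM in Pro, with 340 ± 13.1 in Baso and 292 ± 15.7 in Poly, and stood at 69.3 ± 7.42 in Ortho, so that its lowest level came last. These 3 were called lower under each scaling tried, whereas over the 10 factors 2 were called higher and 4 lower after median centring or with hemoglobin genes left out of the scaling.

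Of 10 repressors of the embryonic globin genes none was called higher and 4 were called lower in Ortho over Pro (median -0.84). Dnmt1, the maintenance DNA methyltransferase, fell by 1.47 ± 0.08, Mbd2, a reader of methylated DNA, by 1.33 ± 0.06 and Bcl11a, a repressor of fetal and embryonic globin, by 1.28 ± 0.11. This count, like that over all tested genes, depended on the scaling. Without hemoglobin genes in the scaling 1 of the 10 was called higher and none lower. With libraries rescaled to the same sum 7 were called lower.

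Of 10 genes tied to the clearance of unpaired globin chains, 3 were called higher and 4 lower (median 0.34). Ube2o, a ubiquitin ligase that marks free alpha-globin for degradation, rose by 3.29 ± 0.12 (adjusted p = 2.7e-09, limma), starting at 32.8 ± 4.89 FPKM in Pro, with 104 ± 13.6 in Baso and 107 ± 9.60 in Poly before 327 ± 10.2 in Ortho. Ulk1, the kinase that starts autophagy, rose by 1.69 ± 0.17, and Dnajb1, a co-chaperone of the heat shock response, fell by 1.50 ± 0.09. Without hemoglobin genes in the scaling 4 of this list were called higher and 1 lower.

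**Figure D4:**
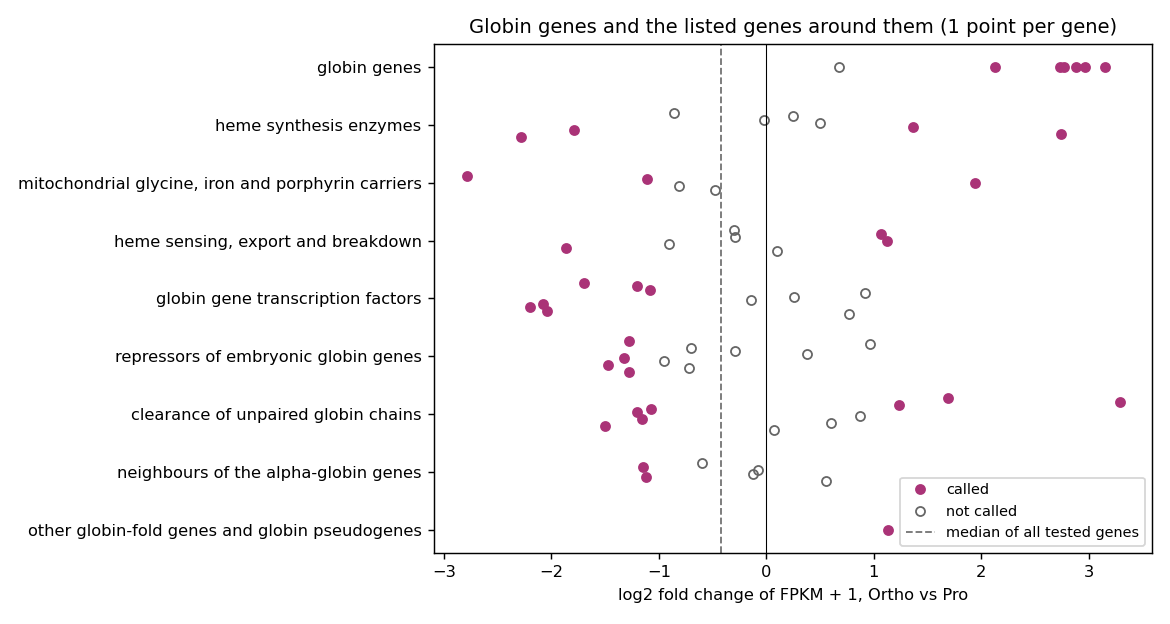
Log2 fold change of FPKM + 1 in Ortho vs Pro (horizontal axis) for the 7 tested globin genes and the tested genes of each list (rows; vertical offsets within a row only separate points); filled points were called, open points were not, and the dashed line is the median of all 12994 tested genes, at -0.42. The called globin genes lie between 2.12 and 3.15, while the lists hold genes on both sides of 0.

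Of 8 genes that flank the alpha cluster 6 were tested, and in Ortho over Pro none was called higher and 2 were called lower (median -0.36). Polr3k, a subunit of RNA polymerase III, fell by 1.15 ± 0.10 and Luc7l, a splicing factor gene, by 1.12 ± 0.14, while Snrnp25, a spliceosome component, differed by -0.60 ± 0.12, below the fold for a call. No neighbour was called in either direction after median centring (median 0.03) or with hemoglobin genes left out of the scaling (median 0.09). Of 10 other globin-fold genes and globin pseudogenes, 5 are analysed here, and only the alpha-globin pseudogene Hba-ps4 (chr17:26286363-26287061) passed the filter, through the stages after Pro. It measured 0.288, 0.228 and 0 FPKM in Pro and 1.49, 1.21 and 2.01 in Ortho. Its transcript shares a run of at most 47 bases with Hba-a1 and Hba-a2, below the read length. Whether reads of the adult alpha genes were assigned to it was not tested.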

How the data were processed

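The authors trimmed reads (cutadapt, Trimmomatic), aligned them to mm10 (HISAT2, SAMtools), counted them per gene (featureCounts) and deposited FPKM, per the submitters' processing notes; versions and the treatment of reads that match several copies are not given in the sources used here. The labels name Trizol and a NEBNext Ultra kit, the study's methods another lysis and kit. FPKM sums ran from 505624 to 691033 per library, and low values did not fall into steps of whole fragments, so depth is unknown.

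limma 3.58.1 (R 4.3.3) with a variance trend was fitted to log2(FPKM + 1) of all 12 libraries, on the 12994 genes that reached 1 FPKM in 3 or more libraries, with Benjamini-Hochberg adjustment, and was checked on simulated data. The pseudocount understates changes of low genes. Ratios were compared by exact permutation. Alternatives covered pseudocount, filter, scaling, trend, samples, replicate block and single libraries left out. Same-numbered libraries deviated together among Baso, Poly and Ortho (correlations of 0.156 to 0.319) but not with Pro (0.0052 to 0.0968), and no source says what the numbers share. Named genes were the members, at most 3 genes of each list with the largest change in Ortho over Pro, the 3 genes most like Hbb-bs and Hba-a1 (1 of which is not reported here), and the 2 most abundant of each marker list. The members and lists were chosen with earlier results of these data known. Ahsp and its ratio to adult alpha are not analysed here. RefSeq promoters (GRCm38.p6) matched 8 of the 9 genes, Hbb-bh1 not among them.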

Additional observations from a re-analysis of the deposited data

How the results depend on the processing

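The count of 6 members called higher against Pro changed under 3 of the alternatives run. Without a filter on low values it was 2 (Hbq1a and Hbq1b) in Baso, Poly and Ortho over Pro, and with neither filter nor variance trend, a combination chosen after seeing the data, it was again 6. With median centring, or with the adjusted p alone, it was 7 in Ortho over Pro, Hba-x being added. Hba-x passed the filter only through its Ortho libraries, so that its addition is no support for a change. Of the 12994 tested genes 3371 were called in Ortho over Pro after median centring, 61.6% of them higher. By the adjusted p alone it was 9857, 29.9% of them higher. In Ortho over Poly the count was 0 with the fold criterion and 5 with the adjusted p alone. Leaving out 1 library gave 6 to 6 called members in each comparison with Pro and 0 to 0 in the other comparisons.

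For the ratios, leaving out 1 library moved the Ortho minus Pro difference of the Hbb-bt share from -8.24 to -3.32 percentage points, that of the Hba-a1 share from -2.16 to -1.01 and that of the log2 alpha to beta ratio from -0.12 to -0.0061. With Hba-a1 over Hbb-bs alone, which rests on the uncertain splits within both pairs, the last was -0.27 and passed the test. Permuting stages within replicate number (replicate block) gave an adjusted p of 0.010 for the Hbb-bt share. The same permutation over Baso, Poly and Ortho alone, chosen after seeing the data, gave an Ortho minus Baso difference of -1.35 percentage points for that share (adjusted p = 0.13), which no longer passed. Over all 12 libraries the block in the limma fit changed no call of a member.

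Signs turned only where the main difference was not significant. With a pseudocount of 0.1 Hba-x was -0.27 in Baso over Pro, -0.079 in Poly over Pro and 0.19 in Poly over Baso. Scaling without hemoglobin genes gave 0.0028 for Hba-x and 0.026 for Hbq1b in Poly over Baso, median centring gave -0.038 for Hba-a1 and -0.014 for Hba-a2 there, and rescaling to the same sum gave -0.15 for Hbq1b in Ortho over Poly and -0.011 for Hba-x in Poly over Pro. Leaving out 1 library, Poly over Baso ran from -0.028 to 0.062 for Hba-a1, -0.012 to 0.086 for Hba-a2, -0.022 to 0.012 for Hbq1b and -0.30 to 0.22 for Hba-x, while Hba-x ran from -0.13 to 0.35 in Baso over Pro and -0.12 to 0.28 in Poly over Pro. The cause was not tested. The Ahsp ratio is not analysed here. Unknown depth limits what can be said of the embryonic genes, whose values include exact 0s. The near-identical copies limit the splits within pairs and, as their lengths differ, the sums of pairs.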

Other observations

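The alpha-globin pseudogene Hba-ps4, on another chromosome, stood at 13.7, 7.04 and 0 FPKM per 1000000 FPKM of adult alpha in Pro, 8.35, 8.21 and 7.29 in Baso, 9.97, 8.98 and 8.69 in Poly, and 8.55, 6.06 and 10.9 in Ortho. From Baso on its level thus stayed within 6.06 to 10.9 on that scale while adult alpha itself rose. The part of wrongly assigned adult alpha reads in these values was not tested. The beta-like genes Hbb-bh0 and Hbb-bh2 were listed between 0 and 0.510 FPKM in all 12 libraries.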
